A study of Mus musculus with 16 samples.

Results

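Chromatin-modifying enzymes and subunits with a known part in stem cell maintenance were examined in muscle stem cells (MuSCs) of control mice and of mice labelled as knockouts of Terf2, the gene of the telomere-binding protein TRF2. The 9 genes were taken by symbol from a table of 24411 genes and all were found. They are the arginine methyltransferases Prmt1, Prmt5 and Carm1, the Polycomb repressive complex 2 (PRC2) genes Ezh1, Ezh2, Eed and Suz12, and the sirtuins Sirt1 and Sirt2. RNA sequencing covered 16 libraries in 4 groups of 4 biological replicates. Controls, labelled wild type, and TRF2 MuSC-cKO mice, in which floxed Terf2 is deleted by a tamoxifen-inducible Cre recombinase expressed from Pax7, were compared in uninjured hindlimb muscle and at 3 days postinjury (3 DPI) with 10 µl of notexin, a myotoxin, injected into the tibialis anterior. Recombination is limited to cells with Pax7 expression at the time of tamoxifen treatment, which was given to adults on a C57BL/6 background. The cells were sorted for α7-integrin with VCAM or CD34, and against CD45, CD31, CD11b and Sca1, and were pooled per library as bulk RNA.

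Arginine methyltransferases place methyl groups on histone and nonhistone proteins. PRMT1 makes most of the asymmetric dimethylarginine of mammalian cells, CARM1 methylates PAX7 in MuSCs and so helps to activate Myf5, and PRMT5, with its obligate partner WDR77, makes symmetric dimethylarginine. PRC2 deposits the repressive H3K27 methyl mark through EZH1 or EZH2, which need the core subunits EED and SUZ12, and EZH2 is the form linked to proliferating cells while EZH1 prevails in resting ones. Sirtuins are NAD-dependent deacylases that tie chromatin to metabolism, with SIRT1 linked to the MuSC exit from quiescence and SIRT2 known as a mainly cytoplasmic tubulin and histone H4 deacetylase.

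Library totals ran from 620506 to 1351130 estimated counts, and a member had between 4 and 231 counts in a library, so sampling alone adds visible spread to the rarer ones. Levels are given as CPM, counts relative to the library total after TMM scaling, or as TPM, the same idea per transcript length, where genes are compared with each other. CPM, and the overlap of groups, use scaling over all 16 libraries, while each fitted fold change uses scaling over the libraries it compares. They can differ slightly: uninjured Carm1 had means of 86.6 CPM in cKO and 91.4 CPM in control libraries beside a log2 fold change of 0.06. Terf2 was 76.4 ± 12.5 CPM in control and 45.6 ± 13.2 CPM in TRF2 MuSC-cKO uninjured libraries (SD, n = 4), with no overlap (two-sided exact permutation test, p = 0.0286, the smallest that 4 against 4 libraries can give). The difference of -30.8 CPM was -17.5 CPM with library size alone (exact permutation p = 0.114) and -24.7 CPM without control replicate 2 (exact permutation p = 0.0571). In the edgeR test used below for all genes the Terf2 log2 fold change of -0.62 did not pass (SE 0.27, adjusted p = 0.199). At 3 DPI Terf2 was 43.8 ± 6.11 CPM in controls and 57.8 ± 28.4 CPM in the libraries labelled TRF2 MuSC-cKO, so it was not lower there and does not check that label (exact permutation test, p = 0.4, n = 4). Without replicate 2 of the latter it was higher there by 26.0 CPM (exact permutation test, p = 0.0286), and among replicates 1 and 2 of both groups, which share a description code, its log2 fold change was -0.18 (adjusted p = 0.985). The 3 DPI library labelled cKO replicate 3 stood apart with 15387 genes detected, against 19996 to 21879 in the other 15 libraries. A code in the sample descriptions, whose meaning is not given, is never shared by uninjured control and TRF2 MuSC-cKO libraries, so this code and genotype cannot be told apart there. The injury states share only a code of 1 uninjured and 2 injured libraries in each genotype, so code and injury are largely confounded too.

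The sequences before the start sites of the members that differ most between genotypes are shown first, since TRF2 binds TTAGGG telomere repeats and is also described to bind G-quadruplexes, folds of DNA with several runs of guanine. RefSeq (GRCm38.p6) promoters matched 8 of the 9 members by symbol, all but Carm1. The 250 bases before the start are printed 5′ to 3′ on the gene's strand, with each run of at least 3 G or 3 C in capitals. Prmt1 lies at chr7:44986421-44986670 (minus strand) and Sirt2 at chr7:28766502-28766751 (plus strand), and Sirt1 at chr10:63339036-63339285 (minus strand) is set beside them because it was the one member with the guanine pattern searched for.
Prmt1: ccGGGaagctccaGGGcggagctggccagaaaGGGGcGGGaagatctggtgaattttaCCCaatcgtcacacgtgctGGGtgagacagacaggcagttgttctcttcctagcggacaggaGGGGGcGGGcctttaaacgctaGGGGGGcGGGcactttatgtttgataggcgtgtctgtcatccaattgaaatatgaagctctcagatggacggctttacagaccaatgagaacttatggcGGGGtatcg
Sirt2: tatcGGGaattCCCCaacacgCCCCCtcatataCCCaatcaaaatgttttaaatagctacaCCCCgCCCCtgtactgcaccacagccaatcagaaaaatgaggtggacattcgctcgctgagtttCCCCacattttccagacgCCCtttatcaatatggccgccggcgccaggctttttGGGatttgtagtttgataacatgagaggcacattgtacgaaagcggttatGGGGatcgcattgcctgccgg
Sirt1: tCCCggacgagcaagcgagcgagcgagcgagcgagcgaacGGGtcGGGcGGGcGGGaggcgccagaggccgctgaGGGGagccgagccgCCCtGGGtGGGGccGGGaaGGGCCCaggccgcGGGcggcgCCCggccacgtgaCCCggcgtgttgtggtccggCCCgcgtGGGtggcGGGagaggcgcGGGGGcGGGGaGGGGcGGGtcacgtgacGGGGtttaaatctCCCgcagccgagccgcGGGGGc
Of the printed bases, 148 in Prmt1, 17 in Sirt2 and 15 in Sirt1 fall within exons of longer transcripts of the same gene in GENCODE M21. The pattern was 4 runs of at least 3 G separated by 1 to 7 bases on either strand, which 16.7% of all 32851 promoter windows of this length hold. The Sirt1 window held it, with 25 runs of G or C in 79.2% GC, and the windows of the other 7 members did not. The Prmt1 window had 11 such runs and the Sirt2 window 10, near the median of 8 over all promoters. The telomere unit TTAGGG, on either strand, was in the Eed window alone among the members (chr7:89980977-89981226) and in 9.32% of all windows. These are matches of letters in a window and no measurement of binding.

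Per length, Sirt2 had the highest mean of the members in every group, though not the highest value in every library. In uninjured control MuSCs it stood at 239 ± 13.8 TPM, followed by Prmt1 at 143 ± 23.7, Ezh1 at 83.5 ± 21.7 and Carm1 at 64.5 ± 10.8 TPM (SD, n = 4). Each of these 4 lay above the next in every library, including Carm1 above Suz12. Below them Suz12, Prmt5, Eed, Ezh2 and Sirt1, at mean levels from 33.6 to 22.3 TPM, were not separated from their neighbours, which changed places in 1 or 2 of the 4 libraries. In uninjured TRF2 MuSC-cKO MuSCs Sirt2 had the highest mean, 114 ± 27.7 TPM, although Prmt1 slightly exceeded it in replicate 1 (101 and 99.8 TPM), and Carm1, Prmt1 and Ezh1 (76.6, 69.8 and 63.5 TPM) were no longer in a fixed order. In control MuSCs at 3 DPI Ezh1 had moved from the third to the eighth place, at 26.6 ± 6.87 TPM (n = 4). In replicate 2 of this group Prmt1 was above Sirt2 (148 and 109.6 TPM). In the 3 DPI libraries labelled cKO, Prmt1, Prmt5, Eed and Suz12 (99.5, 88.5, 79.9 and 50.2 TPM) were above Sirt2 (46.2 TPM) in replicate 2, and Sirt1 and Ezh1 (111.5 and 67.2 TPM) were above Sirt2 (61.8 TPM) in replicate 3.

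**Figure D1:**
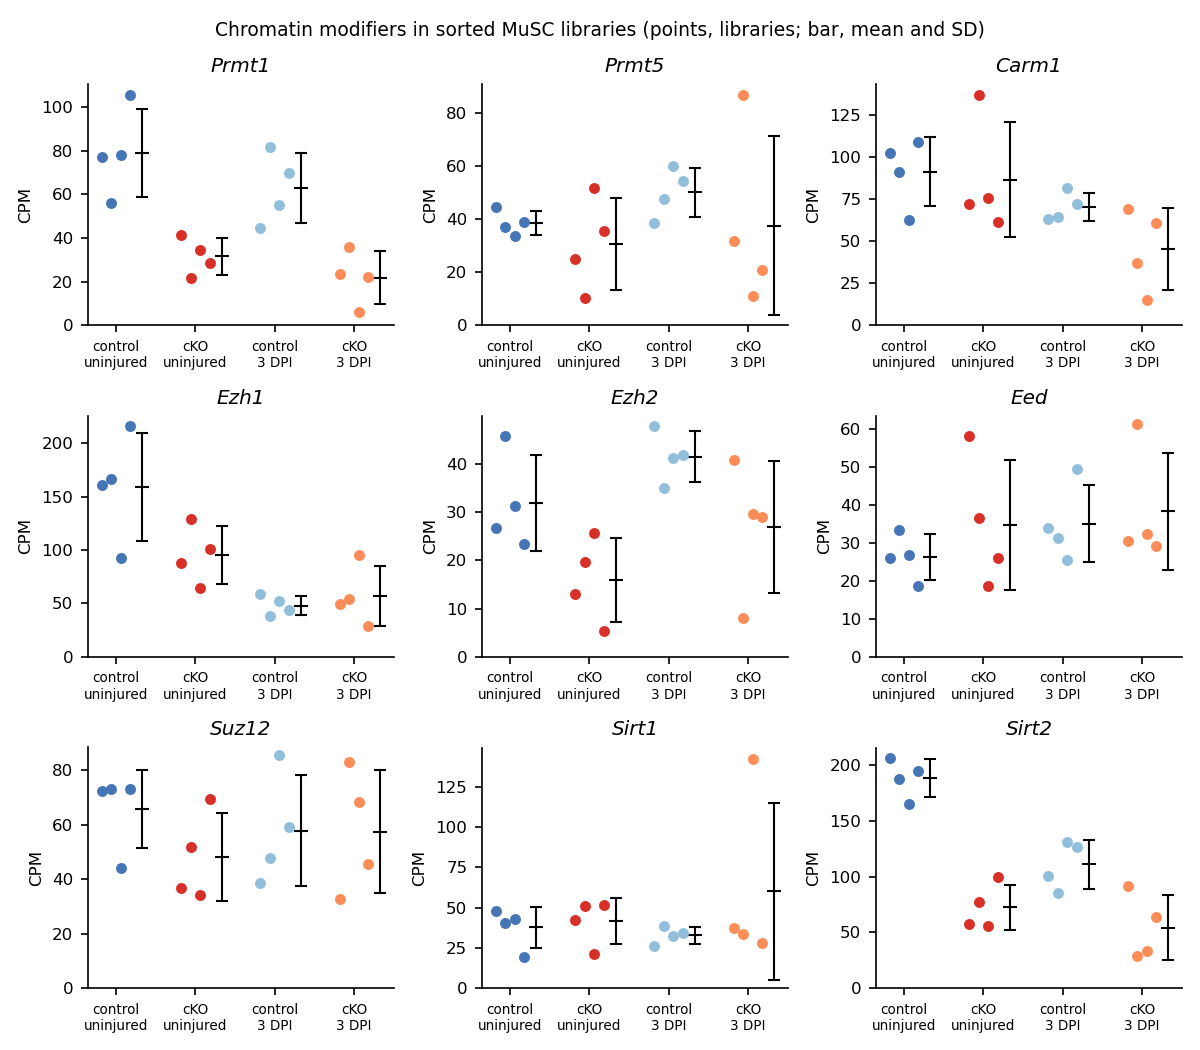
Level of each of the 9 members in CPM (vertical axes, each from 0) in the 16 libraries by group, where points are libraries and bars show the mean and SD of 4. Prmt1 and Sirt2 separate control from TRF2 MuSC-cKO libraries in uninjured muscle, Ezh1 separates uninjured from 3 DPI controls, and a single 3 DPI library labelled cKO lifts Sirt1 to 143 CPM.

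The first comparison asks which of these chromatin genes differ by genotype in MuSCs of uninjured muscle. Prmt1 and Sirt2 were lower in uninjured TRF2 MuSC-cKO than in control MuSCs, and the other 7 members were not called. Calls required an adjusted p below 0.02, from edgeR's quasi-likelihood test with Benjamini-Hochberg adjustment over all genes, and a fold change above 1.5. By this rule 2 of the 9 members (22.2%) were called lower, beside 2.63% of the 14048 genes tested (3.22% called in either direction). The paper had listed Prmt1, Sirt2 and Ezh1 among the genes lower in uninjured TRF2 MuSC-cKO MuSCs. Because the members were chosen with earlier results of these data known, their larger share of calls is no independent evidence. The groups did not overlap for 2 of the 9 members and for 12.6% of all genes. The median log2 fold change was -0.33 over the members and 0.06 over all genes.

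Prmt1 (chr7:44975989-44986568, minus strand, GRCm38) had 76.8, 55.8, 77.9 and 105.3 CPM in control replicates 1 to 4. In TRF2 MuSC-cKO replicates 1 to 4 it had 41.4, 21.8, 34.4 and 28.6 CPM. Every cKO library was below every control library, and the fitted level was 2.29-fold lower (log2 fold change -1.20, SE 0.29, edgeR adjusted p = 0.00846). The call was lost in 4 of the 8 fits that left out 1 library (control replicate 1 or 4, adjusted p = 0.0219 and 0.0609; cKO replicate 2 or 4, adjusted p = 0.0391 and 0.0255), with log2 fold changes between -1.39 and -1.05. It was also lost with robust limma, library size alone, the authors' rescaled table and all 16 libraries in one fit (adjusted p = 0.0417, 0.0417, 0.0456 and 0.11).

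The other arginine methyltransferases of the main group did not separate the genotypes. Prmt5 (chr14:54507187-54517525, minus strand) measured 33.7 to 44.7 CPM in control and 10.4 to 51.5 CPM in cKO libraries, so the cKO values spread to both sides of the controls (log2 fold change -0.24, 95% interval -0.97 to 0.50). Carm1 (chr9:21546894-21592623, plus strand) measured 62.8 to 109 CPM in control and 61.3 to 137 CPM in cKO libraries, with a log2 fold change of 0.06 and an interval from -0.44 to 0.56. Without cKO replicate 2, the highest library, the Carm1 log2 fold change was -0.27. Of the Carm1 exonic bases 21.1% are shared with Yipf2 on the opposite strand, whose own log2 fold change was -0.30 (edgeR adjusted p = 0.797). Among all 9 arginine methyltransferases tested, Prmt1 alone was called. The PRMT5 cofactor Wdr77 was at 39.5 to 59.4 CPM in control and 15.6 to 35.5 CPM in cKO libraries without overlap, but was not called (log2 fold change -0.91, SE 0.35, edgeR adjusted p = 0.121). The other PRMT5 adaptors Clns1a and Riok1 had log2 fold changes of -0.50 and -0.12 (edgeR adjusted p = 0.464 and 0.871), and Coprs, with at most 20 counts in a library, was too rare to be tested.

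The catalytic PRC2 genes had lower means in the cKO but were not called. Ezh1 (chr11:101191115-101226463, minus strand) had 160.8, 166.6, 93.0 and 216.4 CPM in control replicates 1 to 4 and 87.6, 128.8, 64.4 and 100.8 CPM in cKO replicates 1 to 4. The ranges overlap through control replicate 3 (log2 fold change -0.60, SE 0.23, edgeR adjusted p = 0.124). Ezh2 (chr6:47530139-47595341, minus strand) was at 23.4 to 45.9 CPM in control and 5.45 to 25.8 CPM in cKO libraries, where the lowest library held 4 counts (log2 fold change -0.87, SE 0.43, edgeR adjusted p = 0.254). The scaffold subunits went to either side of 0, Eed (chr7:89954654-89980983, minus strand) with a log2 fold change of 0.54 (95% interval -0.20 to 1.29) and Suz12 (chr11:79993106-80034123, plus strand) with -0.33 (95% interval -0.89 to 0.24). Of the histone-binding subunits, Rbbp7 had a log2 fold change of -0.69 and Rbbp4 of -0.47 (edgeR adjusted p = 0.0665 and 0.249). None of the 12 PRC2 genes was called by edgeR, while 4 of them (Ezh1, Ezh2, Rbbp4 and Rbbp7) had an unadjusted p below 0.05, beside 19.5% of all genes.

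Sirt2 (chr7:28766735-28788661, plus strand) had the smallest p of the 9 members. It had 206.4, 187.3, 165.1 and 194.0 CPM in control replicates 1 to 4 and 58.0, 76.9, 55.8 and 99.4 CPM in cKO replicates 1 to 4. The lowest control library exceeded the highest cKO library, and the fitted level was 2.38-fold lower (log2 fold change -1.25, SE 0.22, edgeR adjusted p = 0.000179). The call held in each of the 8 fits that left out 1 library, but was lost with the authors' rescaled table and with all 16 libraries in one fit (adjusted p = 0.0323 and 0.0228). Nfkbib, which shares 42 exonic bases with Sirt2 on the opposite strand, had a log2 fold change of 0.22 (edgeR adjusted p = 0.793). Sirt1 (chr10:63319005-63381704, minus strand) was at 19.5 to 48.3 CPM in control and 21.5 to 51.8 CPM in cKO libraries, with a log2 fold change of 0.26 (95% interval -0.41 to 0.94). Of 5 sirtuins tested, only Sirt2 was called, and Sirt6, Sirt4 and Sirt7 had log2 fold changes of 0.41, -0.13 and -0.40 (edgeR adjusted p from 0.585 to 0.924).

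Across 11 lists of chromatin genes (arginine methyltransferases, PRMT5 partners, PRC1, PRC2, H3K27 demethylases, sirtuins, KMT2 and SET1 complexes, H4K20 methyltransferases, DNA methylation, histone deacetylases and acetyltransferases), 0 of the 78 genes tested apart from the members were called by edgeR in this comparison. Their median log2 fold change was -0.13, and 9 (11.5%) had an unadjusted p below 0.05, a smaller share than the 19.5% of all genes. The limma fits also called 0 and DESeq2 called 1, the PRC1 gene Cbx6. Of the 9 genes on a list of genes tied to the members in MuSCs, 1 was called higher and 2 lower. The cyclin-dependent kinase inhibitor Cdkn1a rose from a range of 87.3 to 125 CPM to one of 432 to 579 CPM (log2 fold change 2.37, SE 0.20, edgeR adjusted p = 3.5e-11). Cdkn1c, another inhibitor of the same family, fell by 1.25 (SE 0.27, edgeR adjusted p = 0.00259) and the myogenic factor Myod1 by 1.14 on the log2 scale (SE 0.27, edgeR adjusted p = 0.00528), both without overlap. Pax7 and Myf5, which CARM1 acts through, had log2 fold changes of -0.53 and -0.76 and were not called (edgeR adjusted p = 0.111 and 0.0266), and Cdkn2a, a locus under PRC2 control in many cells, had 0.57 (edgeR adjusted p = 0.678) at no more than 16 counts in a library.

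Marker genes of the sorted cells moved with genotype in the same libraries. Of 9 MuSC markers 7 were called lower in the cKO, and their summed level was 2749 to 4750 CPM in control and 1649 to 2381 CPM in cKO libraries. The 6 fibroadipogenic markers summed to 4456 to 6954 and 986 to 1971 CPM, with Col3a1 and Dpt called lower (log2 fold changes -2.12 and -1.65), Dcn called higher, and Pdgfra at a log2 fold change of 1.09 without overlap (adjusted p = 0.0248). Of the 5 tested 3 were above 0, with a median of 0.65, so the list did not move one way. EdgeR called 0 of the 7 macrophage markers tested, 1 of them at an unadjusted p below 0.05 (71.2 to 117 and 117 to 175 CPM summed). Of the 4 mural markers Rgs5 was called higher (log2 fold change 1.33, SE 0.35, edgeR adjusted p = 0.0144), and their sum was 450 to 621 CPM in control and 419 to 1241 CPM in cKO libraries. In bulk RNA fewer cells of a type and less RNA per cell cannot be told apart, and the part of these shifts in the Prmt1 and Sirt2 values was not tested.

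**Figure D2:**
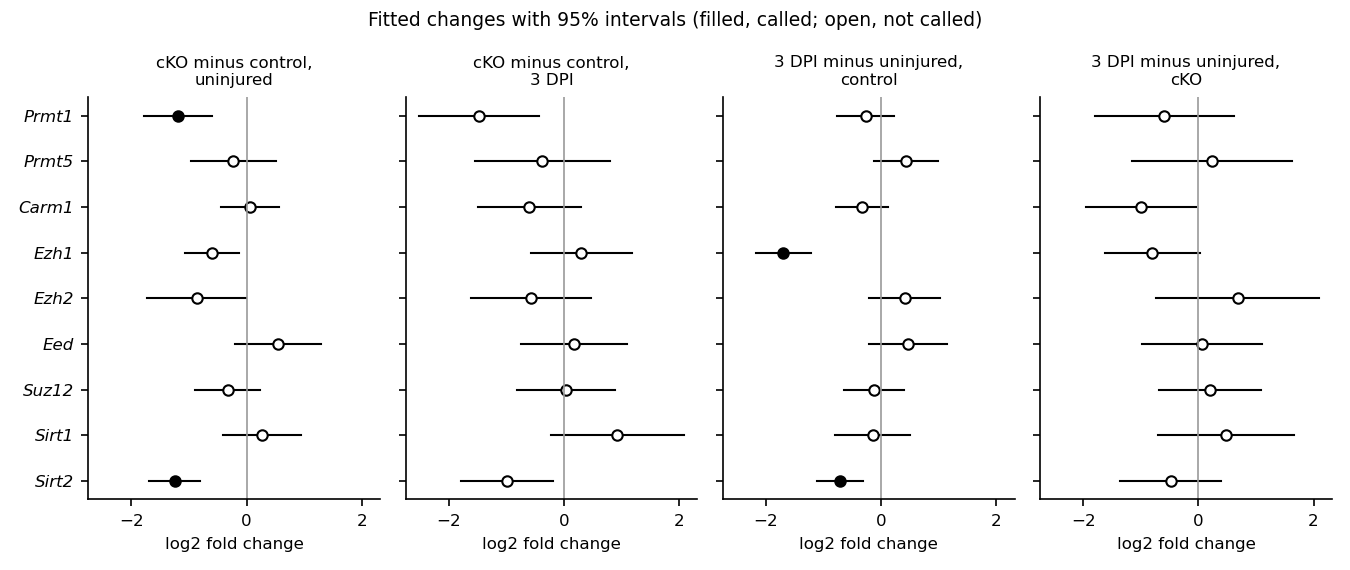
Fitted log2 fold change of each member (horizontal axis, first group minus second) in the 4 comparisons, with 95% intervals as lines, filled points for called genes and open points for the others. Prmt1 and Sirt2 are called in uninjured muscle and Ezh1 and Sirt2 in injured against uninjured controls, and the intervals are wider wherever the 3 DPI libraries labelled cKO take part.

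The same genotype contrast was made at 3 DPI, when MuSCs are activated. In the libraries labelled TRF2 MuSC-cKO, whose Terf2 was not lower, 0 of the 9 members and 0.0% of the 14559 genes tested were called by edgeR. An unadjusted p below 0.05 was found for 2 members, Prmt1 and Sirt2, and for 9.36% of all genes. Robust limma, limma-voom and DESeq2 called 0 members as well, and each tool called 0 of the 80 other chromatin genes tested (6 at an unadjusted p below 0.05 in edgeR). The median log2 fold change was -0.37 over the members and 0.00144 over all genes.

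Prmt1 had 44.8, 81.7, 55.1 and 69.9 CPM in control replicates 1 to 4 and 23.4, 35.8, 6.20 and 22.1 CPM in the libraries labelled cKO. It was the single member of 9 whose groups did not overlap, which was so for 7.84% of all genes. Its log2 fold change was -1.48 (SE 0.48, edgeR adjusted p = 0.453), and -1.20 without cKO replicate 3, the lowest library (adjusted p = 0.154). Among the 2 control libraries and the 2 labelled cKO that share a description code, Prmt1 had a log2 fold change of -1.10 and was not called. It was not called in any of the 19 alternative fits of this contrast.

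Sirt2 had 100.4, 85.6, 130.8 and 126.7 CPM in control replicates 1 to 4 and 91.1, 28.8, 33.5 and 64.1 CPM in the libraries labelled cKO. Replicate 1 of the latter lay within the control range (log2 fold change -0.99, SE 0.37, edgeR adjusted p = 0.478). Sirt1 was at 26.3 to 38.9 CPM in controls and at 37.4, 33.4, 142.6 and 27.96 CPM in the libraries labelled cKO. Its log2 fold change of 0.93 (SE 0.53) rested on replicate 3, and became 0.01 without that library.

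The remaining members had intervals that took in 0 at 3 DPI. Prmt5 ranged from 11.2 to 86.5 CPM in the libraries labelled cKO and from 38.6 to 60.0 CPM in controls. Its log2 fold change of -0.37 changed sign, to 0.45, in the libraries of the shared code. With 1 library left out the Prmt5 value ranged from -1.21 to -0.10. Carm1 had a log2 fold change of -0.60 (95% interval -1.50 to 0.30), with its lowest value, 14.9 CPM, in cKO replicate 3. Ezh1, Ezh2, Eed and Suz12 had log2 fold changes of 0.30, -0.58, 0.17 and 0.04, none with an edgeR adjusted p under 0.723. The PRMT5 cofactor Wdr77 had -1.46 (SE 0.56, edgeR adjusted p = 0.491) and the PRC2 subunit Rbbp4 had -1.05 (SE 0.46, edgeR adjusted p = 0.522), and Cdkn1a, high in the uninjured cKO, had -0.11 (SE 0.25). Cdkn1c and Myod1 had -1.98 (SE 0.35) and -1.38 (SE 0.43) without overlap between the groups, and were not called (edgeR adjusted p = 0.418 and 0.452, unadjusted p = 8.81e-05 and 0.0069).

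Summed MuSC markers were 766 to 1078 CPM in 3 DPI controls and 369 to 620 CPM in the libraries labelled cKO. The 8 macrophage markers, which include the gate's own exclusion genes Ptprc (CD45) and Itgam (CD11b), summed to 4437 to 5633 CPM in controls and 3846 to 5249 CPM in the libraries labelled cKO other than replicate 3, which had 1970. Without overlap between the groups, the 20 cell cycle genes summed to 1364 to 1937 CPM in controls and 972 to 1289 CPM in the libraries labelled cKO, and the 8 myofiber markers to 188 to 272 and 277 to 480 CPM. Gene by gene, 17 cell cycle genes had a log2 fold change below 0 and 3 above. Of the 7 myofiber markers tested 3 were below 0 and 4 above, so that list did not move one way. EdgeR called 0 genes of either list. The part of these differences in the member values was not tested.

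Injury was compared between control libraries, at 3 DPI against uninjured muscle. Cell type markers also differed strongly between these sorted libraries, as given below, and a change within MuSCs apart from these shifts was not tested. Ezh1 and Sirt2 were lower at 3 DPI than in uninjured muscle, and Ezh1 had the larger difference. Called lower were 2 of the 9 members (22.2%), beside 9.46% of the 15356 genes tested, and 20.2% of all genes were called in either direction, so the count by itself does not set the members apart. No overlap between the groups was seen for 2 of 9 members and for 24.3% of all genes. The members' median log2 fold change was -0.15, and that of all genes 0.07.

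Ezh1 had 160.8, 166.6, 93.0 and 216.4 CPM in uninjured controls and 58.7, 37.9, 52.1 and 43.6 CPM in control replicates 1 to 4 at 3 DPI. The highest injured library lay below the lowest uninjured one. Within the shared description code, uninjured replicate 4 (216.4 CPM) was above 3 DPI replicates 3 and 4 (52.1 and 43.6 CPM). The fitted level was 3.24-fold lower (log2 fold change -1.70, SE 0.24, edgeR adjusted p = 1.4e-07). Ezh1 was called under each of the 19 alternative analyses, with log2 fold changes from -1.92 to -1.52. Ezh2, the other catalytic subunit, was at 35.01 to 47.9 CPM at 3 DPI against 23.4 to 45.9 CPM before, with a log2 fold change of 0.41 (95% interval -0.22 to 1.03). Eed and Suz12 had log2 fold changes of 0.46 (95% interval -0.21 to 1.14) and -0.13 (95% interval -0.65 to 0.40). The accessory subunits Phf1 and Jarid2 fell by 1.55 and 0.89 on the log2 scale (edgeR adjusted p = 8.28e-05 and 0.000427), so that 3 of 12 PRC2 genes were lower and 0 higher, while Rbbp4 and Rbbp7 had 0.01 and -0.28.

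The log2 ratio of Ezh1 to Ezh2 within a library was 2.27 ± 0.726 in uninjured and 0.196 ± 0.133 in injured controls (SD, n = 4, CPM with a pseudocount of 1). The 4 injured libraries held 0.288, 0.112, 0.329 and 0.0542 and the 4 uninjured libraries 2.54, 1.84, 1.54 and 3.16, without overlap. The difference of -2.07 had a two-sided exact permutation p = 0.0286, the smallest possible, and 0.114 after adjustment over the 4 comparisons; with 4 libraries a group a single comparison cannot pass 0.05 after this adjustment. In the libraries labelled cKO at 3 DPI the ratio was 0.257, 2.61, 1.65 and 0.00, of which replicates 2 and 3 lay within the range of the uninjured controls. The difference between these and the uninjured cKO libraries was -1.52 (exact permutation test, p = 0.143, n = 4). Between genotypes the ratio differed by 0.376 in uninjured and 0.932 in injured muscle (exact permutation tests, p = 0.6 and 0.343, n = 4), less than the spread between cKO libraries.

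**Figure D3:**
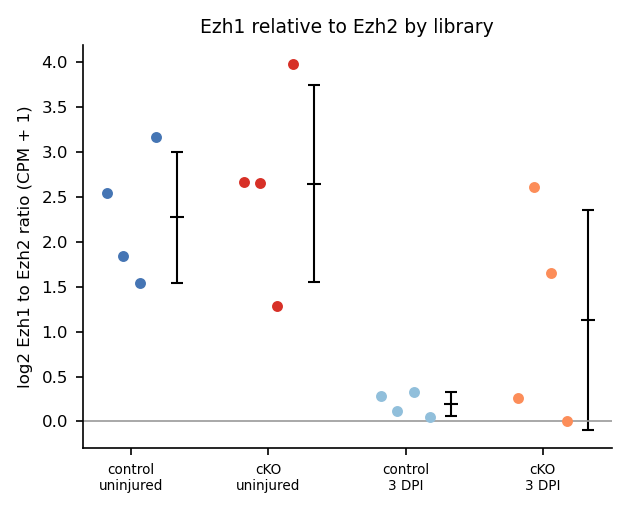
Log2 ratio of Ezh1 to Ezh2 (vertical axis, CPM with 1 added) in each library by group, with points for libraries and bars for the mean and SD of 4. The injured controls lie between 0.0542 and 0.329, below every uninjured control, while the 3 DPI libraries labelled cKO spread from 0.00 to 2.61.

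Sirt2 fell from 165 to 206 CPM in uninjured controls to 85.6 to 131 CPM at 3 DPI, without overlap, and was 1.64-fold lower (log2 fold change -0.72, SE 0.20, edgeR adjusted p = 0.00491). This call was lost without uninjured replicate 1 or 3 DPI replicate 2 (adjusted p = 0.0219 and 0.0367), with all 16 libraries in one fit (0.109), and with library size alone, where the log2 fold change was -0.56. Within the shared code Sirt2 was at 194.0 CPM before and 130.8 and 126.7 CPM after injury. Sirt1 had a log2 fold change of -0.15 (95% interval -0.79 to 0.50). The rate-limiting enzyme of NAD salvage, Nampt, which supplies the sirtuin cofactor, rose by 1.47 on the log2 scale (SE 0.28, edgeR adjusted p = 4.63e-05). Of the 4 NAD salvage genes tested Nampt alone was called, and 3 were below 0 (median log2 fold change -0.29). Of the 9 arginine methyltransferases edgeR called 0, with 0 at an unadjusted p below 0.05 (32.5% of all genes), and limma and DESeq2 called none of the 3 members among them. Prmt1, Prmt5 and Carm1 had log2 fold changes of -0.27 (95% interval -0.77 to 0.23), 0.43 (-0.13 to 0.99) and -0.33 (-0.79 to 0.12).

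Of the 81 other chromatin genes tested, 16 were called lower and 4 higher in injured controls, which is 24.7% beside the 20.2% of all genes. The genes of smallest p other than Ezh1 fell into both directions. The DNA methylation maintenance genes Uhrf1 and Dnmt1 rose by 2.33 and 1.12 on the log2 scale (edgeR adjusted p = 3.7e-08 and 2.17e-05), and the H4K20 monomethyltransferase Kmt5a rose by 1.73 (edgeR adjusted p = 4.02e-06). The PRC1 genes Cbx7 and Cbx6, chromodomain readers of H3K27 methylation, fell by 1.80 and 1.38 (edgeR adjusted p = 1.07e-07 and 2.36e-07). The class IIa deacetylase Hdac4 fell by 1.78, and the H3K4 methyltransferase Kmt2c fell by 1.13 (edgeR adjusted p = 1.36e-08 and 4.26e-06). In the KMT2 and SET1 list 5 of 10 genes were lower and 0 higher.

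**Figure D4:**
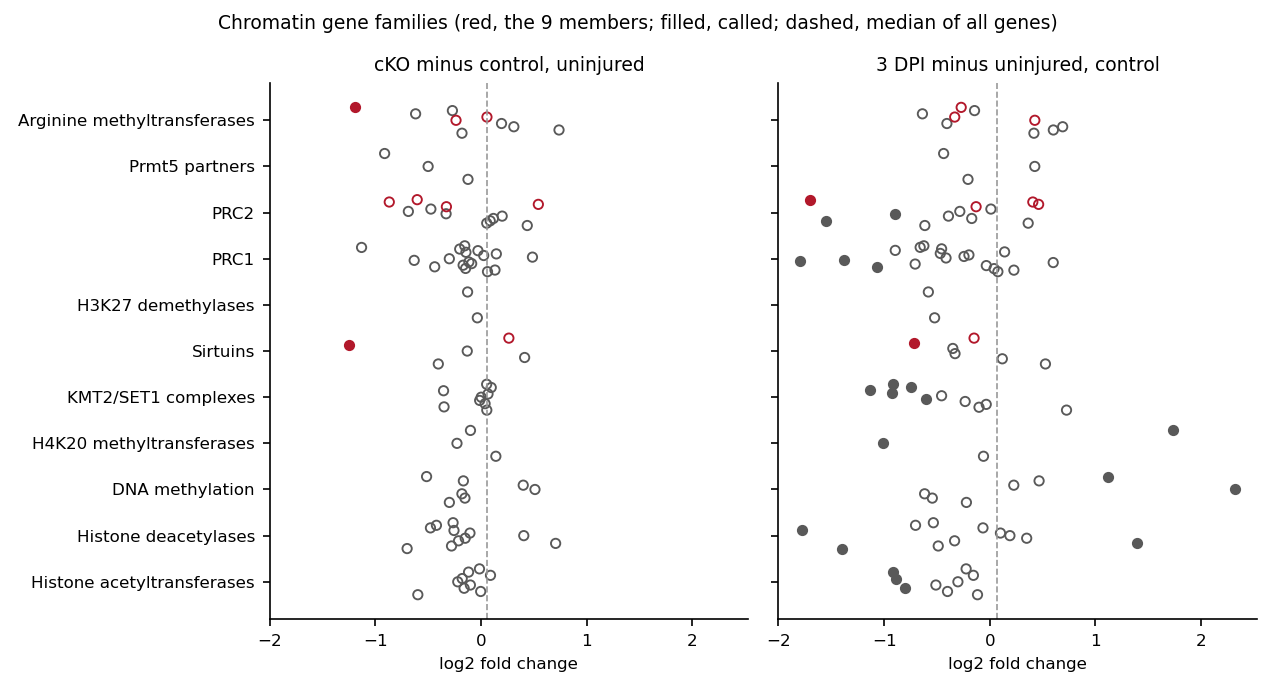
Log2 fold change (horizontal axes) of the tested genes of 11 chromatin lists by genotype in uninjured muscle (left) and by injury in controls (right), with the members in red, called genes filled and the median of all genes as a dashed line. Prmt1 and Sirt2 are the called genes on the left, and on the right called genes occur in most lists, with Ezh1 lowest within PRC2.

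Cell composition markers moved strongly with injury. All 9 MuSC markers were called lower in injured controls, and their sum went from 2749 to 4750 CPM down to 766 to 1078 CPM. All 8 macrophage markers were called higher, with sums of 71.2 to 117 CPM before and 4437 to 5633 CPM after injury, although the sort excluded CD45 and CD11b. All 6 fibroadipogenic markers were called, Pdgfra, Dcn, Lum and Ly6a (Sca1, another exclusion marker of the sort, 3.77-fold) higher and Col3a1 and Dpt lower, with sums of 4456 to 6954 CPM before and 2644 to 4019 CPM after injury. Of 20 cell cycle genes 16 were called higher (409 to 466 and 1364 to 1937 CPM summed). Their part in the lower Ezh1 and Sirt2 levels, and in the unequal change of Ezh1 and Ezh2, was not tested.

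Between uninjured TRF2 MuSC-cKO libraries and the 3 DPI libraries labelled TRF2 MuSC-cKO, 0 members were called by edgeR, beside 4.04% of 14578 genes called, and 1 member, Carm1, at an unadjusted p below 0.05, beside 16.4% of all genes. The groups overlapped for each of the 9 members, whereas 13.6% of all genes did not overlap. Limma and DESeq2 called 0 members too. Ezh1 went from 64.4 to 129 CPM to 49.1, 54.2, 95.5 and 29.1 CPM in the 3 DPI libraries labelled cKO, where replicate 3 stayed within the uninjured range (log2 fold change -0.80, SE 0.39, edgeR adjusted p = 0.335). Without that replicate Ezh1 was called, at -1.15 (adjusted p = 0.0194), and 1316 instead of 589 genes were called in all.

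Carm1 went from 61.3 to 137 CPM to 68.9, 36.9, 14.9 and 60.6 CPM (log2 fold change -1.004, SE 0.45, edgeR adjusted p = 0.274). Sirt1 had a log2 fold change of 0.48, which became -0.39 without replicate 3. Prmt1, Prmt5, Ezh2, Eed, Suz12 and Sirt2 had log2 fold changes of -0.59, 0.24, 0.68, 0.07, 0.20 and -0.48, each with a 95% interval across 0. With 1 library left out Prmt5 ranged from -0.55, without the 3 DPI library labelled cKO replicate 2, to 0.60. Other chromatin genes were called here, 4 lower and 2 higher of 75 tested, namely Cbx7, Kmt2a, Kmt2d and the acetyltransferase Crebbp (log2 fold changes -2.39, -1.19, -0.91 and -0.99) and Dnmt1 and Kmt5a (1.77 and 1.88). Macrophage markers also rose here, with 7 of 8 called, and 6 of 9 MuSC markers were called lower (median log2 fold change -2.0). The part of these shifts in the member values was not tested.

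Whether the genotype difference itself changed with injury was tested as an interaction over all 16 libraries. Of the 9 members 0 were called by edgeR, and 0 by limma or DESeq2, beside 0.0178% of 16822 genes. One member, Ezh1, had an unadjusted p below 0.05 (5.74% of all genes did), with a difference of 0.99 on the log2 scale (95% interval 0.03 to 1.94, edgeR adjusted p = 0.848). For Prmt1 the difference was -0.20 (95% interval -1.32 to 0.93) and for Sirt2 0.35 (95% interval -0.54 to 1.24), so a difference in the genotype effect between injury states was not shown for either gene. Cdkn1a was among the 3 genes called, at -2.40 (SE 0.32, edgeR adjusted p = 0.000944).

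The genes whose level followed each member most closely over the 16 libraries were searched among 16487 genes that averaged 3 or more in log2 CPM. The points share libraries, depth and group differences, so Pearson's r is given as a description, with the value after group means were subtracted in parentheses. Prmt1 was followed by Fscn1, Pxmp4 and Cops7a, at r = 0.942 (0.862), 0.934 (0.903) and 0.928 (0.741). Sirt2 was followed by Rpl4, Fkbp4 and Pcbp2, at r = 0.938 (0.757), 0.926 (0.835) and 0.92 (0.742). Ezh1 was followed by Parva, Arhgap21 and Gem, at r = 0.946 (0.828), 0.937 (0.819) and 0.931 (0.753).

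Carm1 followed Bhlhe40, Smc1a and Surf2 (r = 0.941, 0.932 and 0.931), and Prmt5 followed Hspbp1, Ube2f and Srp9 (r = 0.861, 0.857 and 0.853). The Sirt1 neighbours Wnt9b, Gm10789 and Clvs1 (r = 0.893, 0.89 and 0.88) each had their highest value in the same 3 DPI library as Sirt1, and without it r was 0.78, 0.699 and 0.725. Without the same library the Carm1 values were 0.832, 0.82 and 0.819. Ezh2, Eed and Suz12 had weaker nearest patterns, led by Zfp414 (0.834), Slc18a3 (0.784) and Map1lc3b (0.758). Between the members themselves Prmt1 and Sirt2 had r = 0.721 over the 16 libraries and 0.0232 after group means were subtracted, so that their likeness lay between groups. Ezh1 and Ezh2 had r = -0.184 and -0.115.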

How the data were processed

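RNA sequencing was made from sorted MuSCs in 16 libraries with the CORALL total RNA kit after ribosomal depletion. Per the methods and labels, the authors trimmed reads (Trim Galore 0.6.7), aligned them with STAR to Ensembl GRCm38 (version 2.6.1d in the submitters' processing notes) and quantified genes with Salmon 1.5.2. The authors deposited estimated counts per gene, which were rounded here, and a second table of expected counts rescaled by abundance, from which TPM were computed. Removal of duplicates by molecular identifiers is not given in the sources used here.

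Libraries of the groups compared (4 each) were filtered with filterByExpr, scaled by TMM and tested with edgeR 4.0.16 (robust quasi-likelihood, R 4.3.3), adjusted over all genes. Standard errors are the log2 fold change over the root of the F statistic. Limma 3.58.1 and DESeq2 1.42.0 were alternatives. Named were the members, fixed partners, chromatin genes called (in a comparison with over 15, the 8 of smallest p), and the 3 nearest patterns of each member. Sirt4, Sirt6, Sirt7, Phf1, Nampt, Yipf2 and Nfkbib were named after their values were seen. Of the listed genes 5 were matched by older RefSeq symbols. Members and lists were chosen with earlier results of these data known. The procedure was tested on simulated counts. P-values treat the libraries of a group as independent biological replicates. However, uninjured control replicates 1 to 3 share a description code, as do uninjured cKO replicates 1 to 3. Within each 3 DPI group replicates 1 and 2 share a code, as do replicates 3 and 4. Whether a shared code links libraries is not known.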

Additional observations from a re-analysis of the deposited data

Results flagged for a closer look

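In 40 groups of 4 values (9 members and the Ezh1 to Ezh2 ratio in 4 groups each), 3 values lay far from the other libraries of their group by Dixon's criterion, where chance gives about 1 in 20. Sirt1 was 142.6 CPM in replicate 3 of the 3 DPI libraries labelled TRF2 MuSC-cKO, against 27.96 to 37.4 CPM in the other 3, and this library also had the fewest genes detected (15387). Eed was 61.12 CPM in replicate 2 of the same group, against 29.1 to 32.2 CPM. Suz12 was 44.18 CPM in replicate 3 of the uninjured controls, against 72.4 to 73.1 CPM.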

How the results depend on the processing

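In uninjured muscle the number of members called lower by genotype went from 2 to 1 with the robust limma fit or library size alone (Sirt2 kept, Prmt1 lost) and to 0 with the rescaled table or all 16 libraries in one fit, and ranged from 1 to 2 when 1 library was left out. Prmt1 and Sirt2 stayed lower under all 19 alternatives (log2 fold changes from -1.39 to -0.99 and from -1.45 to -1.07). Library size alone shifted the median gene in uninjured muscle from 0.06 to 0.24 in log2 fold change. In injured controls the number of called members went from 2 to 1 with library size alone or all 16 libraries in one fit (Ezh1 kept, Sirt2 lost), and ranged from 1 to 2 with 1 library left out. Between the uninjured and the 3 DPI libraries labelled cKO it ranged from 0 to 1. At 3 DPI and in the interaction it was 0 throughout. Genes called in all ranged with the setting from 17 (rescaled table) to 711 by genotype in uninjured muscle (452 in the report), 0 to 28 at 3 DPI, 1595 to 3700 after injury in controls, 283 to 1204 between injury states in the libraries labelled cKO and 1 to 123 in the interaction.

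The replicate numbers do not pair the libraries (correlations of same-numbered libraries' deviations from -0.11 to 0.11). With the replicate block, Prmt1 and Sirt2 stayed called in uninjured muscle (log2 fold changes -1.19 and -1.28), the number of called members was unchanged in every comparison, and the Ezh1 to Ezh2 difference of -2.07 in controls had an exact sign-flip p = 0.125, the smallest 4 pairs can give. The ratio difference between genotypes in uninjured muscle ranged from -0.0693 to 0.828 with 1 library left out and was reversed without cKO replicate 4. The Terf2 difference in uninjured muscle was -17.5 CPM with library size alone (exact p = 0.114) and ranged from -35.1 to -24.6 CPM with 1 library left out, with an exact p of 0.0571 without control replicate 2. At 3 DPI it ranged from 3.36 to 26.0 CPM, and at 26.0, without the library labelled cKO replicate 2, the exact p was 0.0286. The causes were not tested. Low counts of some members limit what 4 libraries can resolve.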
